A study of Mus musculus with 6 samples.

Results

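Molecular chaperones of the cytosol, nucleus and mitochondria were examined across 6 bulk RNA-seq libraries of sorted mouse hepatocytes. The set was taken by gene symbol from the deposited table: HSP90, HSP70, HSP110, HSP60, HSP10 and small heat shock protein genes, numbered J-protein genes of classes A, B and C, and the CCT subunits with Tcp1. Of 49315 genes in the table, 97 matched the name pattern; 5 chaperones of the endoplasmic reticulum (Hspa5, Hsp90b1, Dnajb9, Dnajb11 and Dnajc3) and 13 pseudogenes were left out, so that 79 genes remained. Among these 79, 8 encode proteins that sit in or face the endoplasmic reticulum (such as Hspa13 and Dnajc10) and are kept apart below.

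The mice were wild-type C57BL/6J males, 8 weeks old, of which 3 are stated to have received, by hydrodynamic injection, 20 µg of a transposon plasmid carrying miR-206 and GFP. It was given with 0.8 µg of a helper plasmid, under a CMV promoter, that supplies the Sleeping Beauty transposase. In the first plasmid both miR-206, a small RNA best known from skeletal muscle, and GFP are driven by the promoter of transthyretin (Ttr), a liver gene. Hepatocytes were released by perfusion 4 weeks later and sorted on GFP. The 3 miR-206 libraries come from GFP-positive cells; the 3 control libraries are described in the design text as the GFP-negative cells, while their treatment label reads empty vector, and the sources used here do not settle which applies. The labels do not say whether libraries with the same number came from the same mouse, so p-values measure the spread between these samples.

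Chaperones bind proteins that are not yet, or no longer, folded. HSP70 proteins hold short exposed segments in cycles driven by ATP; J proteins deliver clients and trigger ATP hydrolysis, HSP110 proteins exchange the nucleotide, and HSP90 finishes the maturation of kinases and steroid receptors. TRiC (also called CCT) is a double ring of 8 different subunits that folds actin and tubulin in a closed chamber, and the HSP60 and HSP10 pair, encoded by Hspd1 and Hspe1, does the same in the mitochondrial matrix. In hepatocytes these proteins are abundant, and heat or misfolded protein raises many of them through the transcription factor HSF1, which binds heat shock elements, inverted repeats of GAA and TTC in their promoters.

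Those promoter letters are shown first, because most genes with the lowest fold changes below are on a list of known HSF1 targets, called heat-inducible here. The list includes Hspa8 and Hsp90ab1, which are constitutive forms. Listed genes also had higher levels in the controls than the other members, as given below, and the part of this was not tested. A RefSeq table (GRCm38.p6) gave 300-base windows, 250 bases before and 50 bases after a start site, for 64 of the 79 members. The letters searched were TTCNNGAA and GAANNTTC, each of which reads the same on both strands; the 2 motifs can overlap. At least 1 of them occurs in 15.1% of all 32851 windows, in 26.5% of the 83 member windows, and in 58.8% of the 17 windows of 11 members on a list of 14 heat-inducible genes. The windows of the other members hold a match in 18.2%. On the heat-inducible list, Hspa8, Hsp90aa1 and Hsp90ab1 have no window, so these genes, among those with the lowest fold changes, are not covered. The windows of Dnajb1 and Hspa4l, also on the list, hold no match. Stretches around the matches follow, 5′ to 3′ on the gene's strand, with the matching letters in capitals. They are from chr1:55088039-55088096 for Hspd1 (minus strand) and Hspe1 (plus strand), chr5:149636268-149636320 and chr5:149636342-149636389 for Hsph1 (minus), chr17:34959315-34959362 for Hspa1b (minus), chr5:116422835-116422882 for Hspb8 (minus), chr4:40722324-40722371 for Dnaja1 (plus), and chr5:29735832-29735884 for Dnajb6 (plus), which is not on the heat-inducible list.
Hspd1: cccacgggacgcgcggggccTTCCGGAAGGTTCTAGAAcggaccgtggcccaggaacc
Hspe1: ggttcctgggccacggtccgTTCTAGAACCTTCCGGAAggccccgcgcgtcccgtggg
Hsph1 after the start: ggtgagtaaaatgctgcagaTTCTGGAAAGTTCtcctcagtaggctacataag
Hsph1 before the start: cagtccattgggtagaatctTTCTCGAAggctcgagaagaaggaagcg
Hspa1b: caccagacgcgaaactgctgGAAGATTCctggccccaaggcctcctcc
Hspb8: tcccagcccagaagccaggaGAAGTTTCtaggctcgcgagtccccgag
Dnaja1: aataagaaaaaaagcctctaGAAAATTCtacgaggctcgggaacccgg
Dnajb6: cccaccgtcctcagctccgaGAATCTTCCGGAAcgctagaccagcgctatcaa

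Hspd1 and Hspe1 lie head to head on chromosome 1 and share this block: their windows have 285 bases in common, and the annotated genes overlap by 112 bases. A longer element of 3 adjoining units occurs in 0.603% of all windows and in 23.5% of the heat-inducible ones. The latter windows belong to Hspd1 and Hspe1, which hold the same block, and to Hsph1, whose overlapping windows hold the same element. The Hspa1a window differs from that of Hspa1b at 4 positions (98.7% identical). Such shared or near-identical windows are counted separately in all these shares, so the windows are not independent. These are letters in a window and do not show binding.

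The control libraries held 8966590 to 15244017 counts and the miR-206 libraries 4157947 to 5724329. Background was gauged from odorant and pheromone receptor genes (the Olfr and Vmn families), whose expression is not known in hepatocytes; per kb of exon they had 1.27 to 3.08 counts in a control and 3.73 to 5.5 in a miR-206 library. Mitochondrially encoded genes took 36.0, 9.16 and 10.4% of the counts in controls 1 to 3, against 11.2, 63.8 and 48.7% in miR-206 samples 1 to 3, and their part in the results was not tested. Control 1 stood apart from the other controls (correlation of log2 CPM across genes 0.872 and 0.874, against 0.974 between those). Summed hepatocyte markers were present in every library, at 91424 to 218855 CPM (counts scaled to library size and by TMM factors) in the controls and 26541 to 69684 in the miR-206 libraries. Kupffer cell markers summed to 360 to 1574 and to 45.6 to 56.8 CPM, endothelial markers to 418 to 502 and to 104 to 110 CPM, and the immediate early genes of cell isolation to 189 to 229 and to 43.3 to 79.5 CPM. None of these markers was at 0 in all 3 miR-206 libraries, and their part in the results below was not tested. In bulk libraries, fewer cells of a type and less RNA per cell cannot be told apart.

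Chaperone transcripts took a smaller part of the library in the miR-206 samples. They made up 0.556, 0.534 and 0.525% of the nuclear-encoded counts in controls 1 to 3, and 0.155, 0.231 and 0.190% in miR-206 samples 1 to 3. Every miR-206 value lay below every control value, and the 95% Wilson intervals, which cover counting error only, ran from 0.521 to 0.562% and from 0.151 to 0.238%. At the receptor level, background alone would give 0.659 to 3.31% of these member counts in the controls and 31.0 to 33.4% in the miR-206 libraries.

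Of the 79 members, 72 had enough counts for the edgeR quasi-likelihood test and 7 (Hspa1l, Dnajb3, Dnajb8, Hspb2, Hspb3, Hspb7 and Hspb9) did not. At an adjusted p under 0.05, 48 fell and 6 rose in the miR-206 samples, where 29.6% of all 24382 genes tested fell and 25.8% rose. The median log2 fold change was -2.0 over the 72 members and 0.45 over all genes. In 49 members every miR-206 library lay below every control (30.3% of all genes tested), and in 8 every one lay above (36.7%). These counts depend on how libraries are scaled: on the summed hepatocyte markers, 12 members fell and 12 rose, by library size alone 34 fell and 9 rose, and with upper-quartile factors 38 fell and 9 rose. Over the 6 scalings tried, the median of all genes ran from 0.35 to 2.19, and the member median stayed 2.37 to 2.58 below it. A change of scaling moves all genes by nearly the same amount, so that steadiness was built in and carries no weight. Under all 6 scalings, 12 members fell (4.37% of all genes tested did) and 5 rose (22.6%).

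The control level is part of the fold change, so the counts by level are a description from which nothing is read. Of the 53 members at 10 or more times the receptor background in the controls, 46 fell and none rose, whereas of the 19 tested members under that level 2 fell and 6 rose. The background-corrected fit described next holds 4170 protein-coding genes, chosen on mean counts over all 6 libraries, to which the deeper controls gave most. Of its 34 members, 34 stood at 10 or more times background in the controls and 3 in the miR-206 libraries, so a gene could enter through its control level alone, and the counts in it support no direction. With the deposited counts 91.6% of those 4170 genes fell and 0.815% rose, at a median of -2.68, and 33 of the 34 members fell and none rose, at a median of -2.92. In the miR-206 libraries the median member stood at 2.56 times background, against 20.6 times in the controls, and 16 of the 79 were at or under it.

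**Figure D1:**
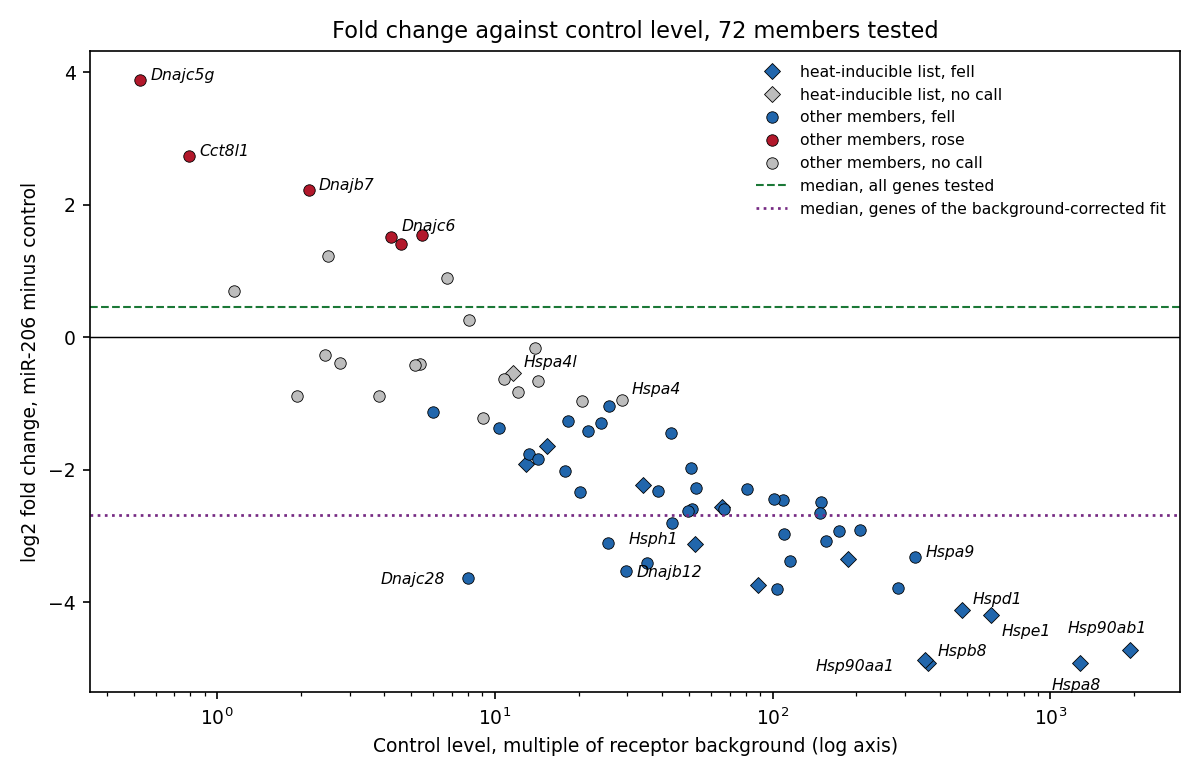
log2 fold change (miR-206 minus control, deposited counts, edgeR) of the 72 members tested against their control level as a multiple of the receptor background (log axis). Diamonds mark the heat-inducible list, colours the call at an adjusted p under 0.05; the dashed line is the median of all genes tested (0.45) and the dotted line that of the genes of the background-corrected fit (-2.68). Hspa8, Hsp90aa1, Hsp90ab1 and Hspb8 sit lowest, and the 6 members that rose are all under 10 times background.

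A second fit therefore subtracted the receptor background from each gene by its exonic length and kept 4170 protein-coding genes with mean counts at least 10 times that background. It took library sizes and TMM factors anew from these genes, so its fold changes are relative to them, not to the whole table. The factors went from 1.92, 1.12 and 1.35 to 0.530, 1.06 and 0.752 in miR-206 samples 1 to 3. Those of controls 1 to 3 went from 0.852, 0.638 and 0.633 to 1.28, 1.36 and 1.36. The parts of subtraction and rescaling in a corrected value were not separated. In this fit 15.5% of genes fell and 19.3% rose, at a median of -0.14. Of its 34 members, 9 fell (Hspa8, Hsp90aa1, Hsp90ab1, Hspb8, Hspd1, Hspe1, Hsph1, Cct5 and Cct7) and 1 rose (Hspa4), at a median of -0.27. In the miR-206 libraries the 9 stood at 1.88 (Hsph1) to 22.9 (Hsp90ab1) times background, and 4 of them (Hsph1, Cct7, Hsp90aa1 and Hspb8) at less than 4 times. The 9 fell under all 5 scalings of the corrected counts, and 8 of them, all but Hsph1, are among the 12 that fell under all 6 scalings of the deposited counts. When libraries were left out in turn, the number that fell ran from 4 to 9. Hspa8, Hsp90aa1, Hsp90ab1 and Hspb8 passed in each of the 6 such fits, and without miR-206 replicate 3 they were the 4 left. Hspe1 and Hsph1 also missed the threshold without control 2 (adjusted p 0.068 and 0.062) and without control 3 (0.068 and 0.059). Without control 1, the library that stood apart, 9 fell and 4 rose after correction, and 55 fell and 7 rose with the deposited counts.

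**Figure D2:**
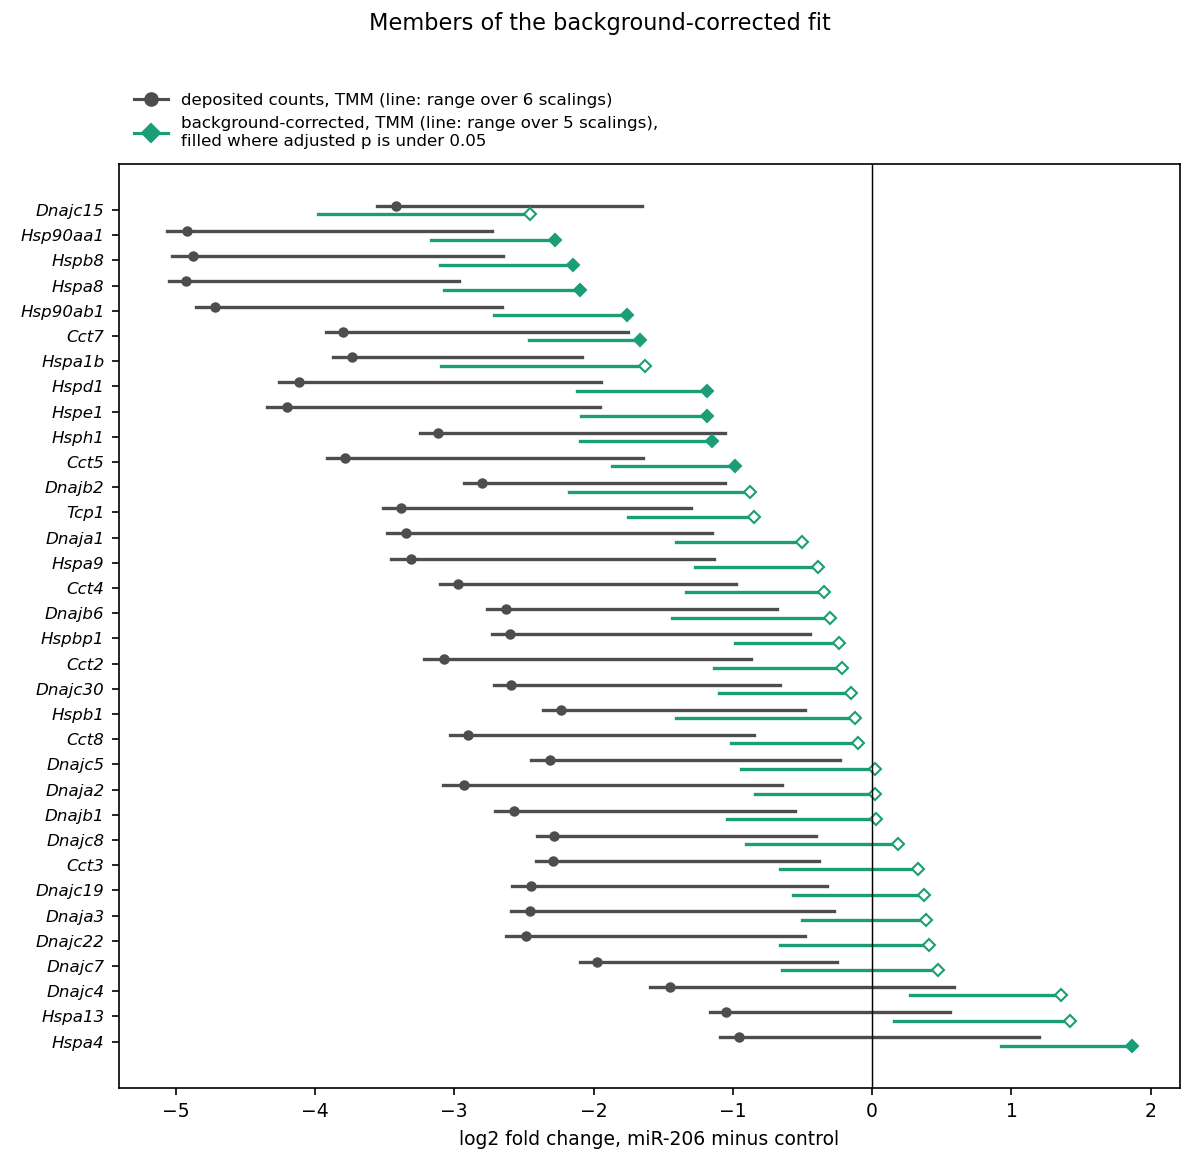
log2 fold change (miR-206 minus control) of the 34 members of the background-corrected fit, with deposited counts (grey circles) and corrected counts (green diamonds, filled at an edgeR adjusted p under 0.05). Points are TMM values and lines the range over 6 and 5 scalings; Hspa8, Hsp90aa1, Hsp90ab1 and Hspb8 lie at -1.76 or lower on every line, and Hspa4, Hspa13 and Dnajc4 lie above 0 throughout the corrected range.

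Both HSP90 genes and the main HSP70 gene fell, and with Hspb8 they had the lowest fold changes in the deposited counts. Hsp90ab1, the constitutive cytosolic HSP90, stood at 814, 1504 and 1445 CPM in controls 1 to 3 and at 45.7, 49.7 and 47.6 CPM in the miR-206 samples. The groups did not overlap, and the miR-206 values lay within a narrow band. Its log2 fold change was -4.72 (SE 0.56, edgeR adjusted p 0.000297) with the deposited counts and -1.76 (adjusted p 0.00678) after correction. Per exonic kb it was the highest member in the controls, at 418 CPM per kb, next to Hspa8 at 280 CPM per kb.

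Hspa8 encodes HSC70, the HSP70 that serves unstressed cells. It stood at 983, 1285 and 1348 CPM in the controls and at 37.2, 38.7 and 43.2 CPM in the miR-206 samples, with no overlap. The log2 fold change was -4.92 (SE 0.54, edgeR adjusted p 0.000281), and -2.10 (adjusted p 0.00665) after correction. It lay between 12.6 and 14.2 times background in the miR-206 libraries, all above the background level. The annotation places it at chr9:40800984-40810087 on the plus strand (GRCm38); HSP70 and HSP90 genes have many processed copies in the genome, and how the authors' counting split reads among copies is not given in the sources used here.

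Hsp90aa1, the stress-inducible HSP90, stood at 146, 394 and 370 CPM in the controls and at 8.77, 12.3 and 9.08 CPM in the miR-206 samples. Control 1 was the lowest control, and still far above every miR-206 sample. The log2 fold change was -4.92 (SE 0.57, edgeR adjusted p 0.000294) and, corrected, -2.28 (adjusted p 0.00267). The ratio of Hsp90aa1 to Hsp90ab1 counts within a library was 0.180 to 0.262 in the controls and 0.192 to 0.248 in the miR-206 samples, ranges that overlap (difference of log2 ratios -0.13, exact permutation p 0.8).

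The inducible HSP70 pair gave low counts. Hspa1b stood at 42.7, 68.8 and 50.3 CPM in the controls and at 6.77, 1.62 and 3.50 CPM in the miR-206 samples; it fell by 3.74 on the log2 scale (edgeR adjusted p 0.000388). Hspa1a stood at 8.51, 7.71 and 9.20 CPM and at 4.26, 0.18 and 2.08 CPM, and fell by 1.91 (adjusted p 0.0328). In TMM-scaled CPM the groups did not overlap for either gene, but by library size alone those of Hspa1a did. Hspa1a fell under 3 of the 6 scalings, with an edgeR adjusted p of 0.426 by library size and 0.633 with hepatocyte scaling. miR-206 sample 2 was the lowest, with 1 count of Hspa1a and 9 of Hspa1b; the Hspa1a call was lost without control 3 (adjusted p 0.058) and without miR-206 replicate 3 (0.094). The 2 genes are near-identical copies on chromosome 17, so that their split is uncertain. Hspa1b had a corrected value of -1.63 with an adjusted p of 0.168, and Hspa1a was below the minimum for that fit.

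Of the other cytosolic HSP70 genes, Hspa14, a ribosome-associated HSP70, fell from 13.5 to 20.8 CPM in the controls to 6.13 to 7.39 CPM, and Hspa2, the testis-rich HSP70, fell from 6.48 to 10.9 CPM to 1.80 to 2.98 CPM. Hspa12a and Hspa12b, distant relatives, had log2 fold changes of -0.26 and -0.88 that missed the threshold. In all, 5 of the 7 cytosolic HSP70 genes tested fell. Hspbp1, which helps release nucleotide from HSP70, fell by 2.60 on the log2 scale with deposited counts and stood at -0.24 (edgeR adjusted p 0.78) after correction.

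**Figure D3:**
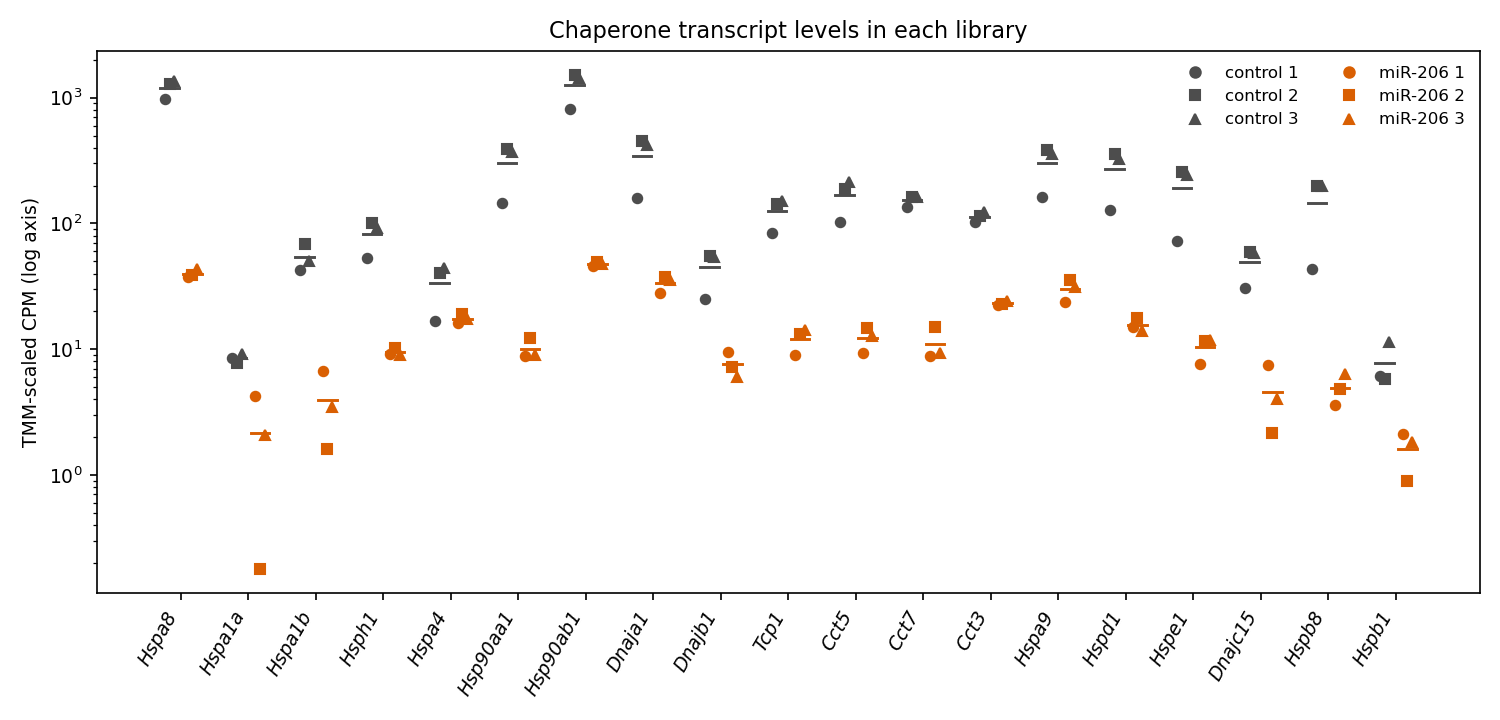
TMM-scaled CPM (log axis) of 19 chaperone genes in each of the 3 control (grey) and 3 miR-206 (orange) libraries; symbols mark the replicate number and short lines the group means. Control and miR-206 points are separate for each gene shown except Hspa4, where control 1 (16.8 CPM) lies among the miR-206 samples.

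The HSP110 family, which exchanges nucleotide on HSP70, split. Hsph1, the inducible HSP110, stood at 53.1, 102 and 92.1 CPM in the controls and at 9.15, 10.3 and 9.08 CPM in the miR-206 samples, and fell by 3.11 on the log2 scale (edgeR adjusted p 0.000332; corrected -1.15, adjusted p 0.0171). Hspa4, the constitutive member, stood at 16.8, 40.7 and 44.0 CPM and at 16.3, 18.9 and 17.2 CPM. Its groups overlapped through control 1, and its deposited log2 fold change of -0.95 missed the threshold (adjusted p 0.0574). After correction it rose by 1.86 (adjusted p 0.0036) relative to the genes of that fit, a call made under 3 of its 5 scalings. As a multiple of background Hspa4 was not higher, at 7.52 to 55.7 in the controls and 4.28 to 5.09 in the miR-206 libraries.

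The ratio of Hsph1 to Hspa4 within a library needs no scaling between libraries. It was 3.16, 2.50 and 2.09 in controls 1 to 3 and 0.563, 0.545 and 0.528 in miR-206 samples 1 to 3, so that the more abundant transcript of the pair changed over. The difference of log2 ratios was -2.22 (exact two-sided permutation p 0.1, the smallest that 3 against 3 allows; adjusted over 7 ratios 0.175), and -3.0 with the background subtracted. Hspa4l, the third member, stood at 27.5 to 33.2 CPM and 17.1 to 25.8 CPM and missed the threshold (log2 fold change -0.55, edgeR adjusted p 0.145).

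Among the J proteins of class A, Dnaja1, the main partner of HSC70, fell from 159, 452 and 417 CPM to 28.2, 37.3 and 35.8 CPM, a log2 fold change of -3.34 (edgeR adjusted p 0.000823). Dnaja2 fell from 40.1, 143 and 145 CPM to 12.3, 18.6 and 12.2 CPM. After correction they stood at -0.50 and 0.02, and neither passed. Dnaja4 was near background in both groups, at 1.15 times in the controls and 0.569 times in the miR-206 libraries.

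In class B, 4 of 7 genes tested fell: Dnajb1, the inducible HSP40, Dnajb2, Dnajb4 and Dnajb6, a suppressor of aggregation. Dnajb1 stood at 25.3, 55.3 and 54.5 CPM in the controls and at 9.52, 7.21 and 5.97 CPM in the miR-206 samples. Dnajb6 stood at 40.7, 80.6 and 73.3 CPM and at 11.9, 8.11 and 11.3 CPM. Dnajb2, a neuronal form, stood at 35.5, 45.0 and 40.2 CPM and at 7.27, 3.60 and 6.23 CPM. None of the 3 class B genes in the corrected fit passed there. The ratio of Dnajb1 to Hspa8, the HSP70 it serves, was 0.0258, 0.0431 and 0.0405 in the controls, against 0.257, 0.188 and 0.139 in the miR-206 samples, again without overlap (difference of log2 ratios 2.41, exact permutation p 0.1, adjusted 0.175; 2.03 with background subtracted). So Dnajb1 was higher relative to Hspa8 in the miR-206 samples. Its own fall was called under 5 of the 6 scalings of the deposited counts, and not with hepatocyte scaling (-0.56, edgeR adjusted p 0.43).

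In class C, a mixed class that shares the J domain alone, 9 of 18 fell and 3 rose. Dnajc7, which links HSP70 to HSP90, fell from 49.7 to 60.1 CPM to 10.8 to 16.7 CPM, and Dnajc5, the cysteine string protein of secretory vesicles, from 33.6 to 70.0 CPM to 9.47 to 12.8 CPM. Dnajc22 fell from 32.5 to 76.7 CPM to 8.29 to 11.9 CPM. None of the 5 class C genes in the corrected fit passed there, and their median was 0.41. Dnajc13, an endosomal J protein, stood at 9.29, 25.0 and 27.3 CPM and at 24.2, 23.8 and 25.6 CPM, which overlap.

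The 6 members that rose were Dnajb7, Dnajb13, Dnajc5b, Dnajc5g, Dnajc6 and Cct8l1. Most are known from testis, and Dnajc6, auxilin, uncoats clathrin vesicles in neurons. Dnajc6 stood at 8.12, 4.42 and 4.49 CPM in the controls and at 18.4, 17.5 and 12.6 CPM in the miR-206 samples (log2 fold change 1.51, edgeR adjusted p 0.00606). Dnajc5g had 0 to 0.308 CPM in the controls and 2.34 to 4.02 CPM in the miR-206 samples (adjusted p 0.0036). In the miR-206 libraries the 6 lay at 1.70 to 5.30 times the receptor background. The receptor genes themselves had a median log2 fold change of 1.68, and 394 of the 796 tested rose while 1 fell. As a multiple of background, Dnajc6 ran from 3.41 to 5.32 in the controls and from 3.01 to 4.52 in the miR-206 samples, which overlap. Without miR-206 replicate 1, 1 of these members rose, without replicate 2, 2 did, and without replicate 3, 3 did.

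**Figure D4:**
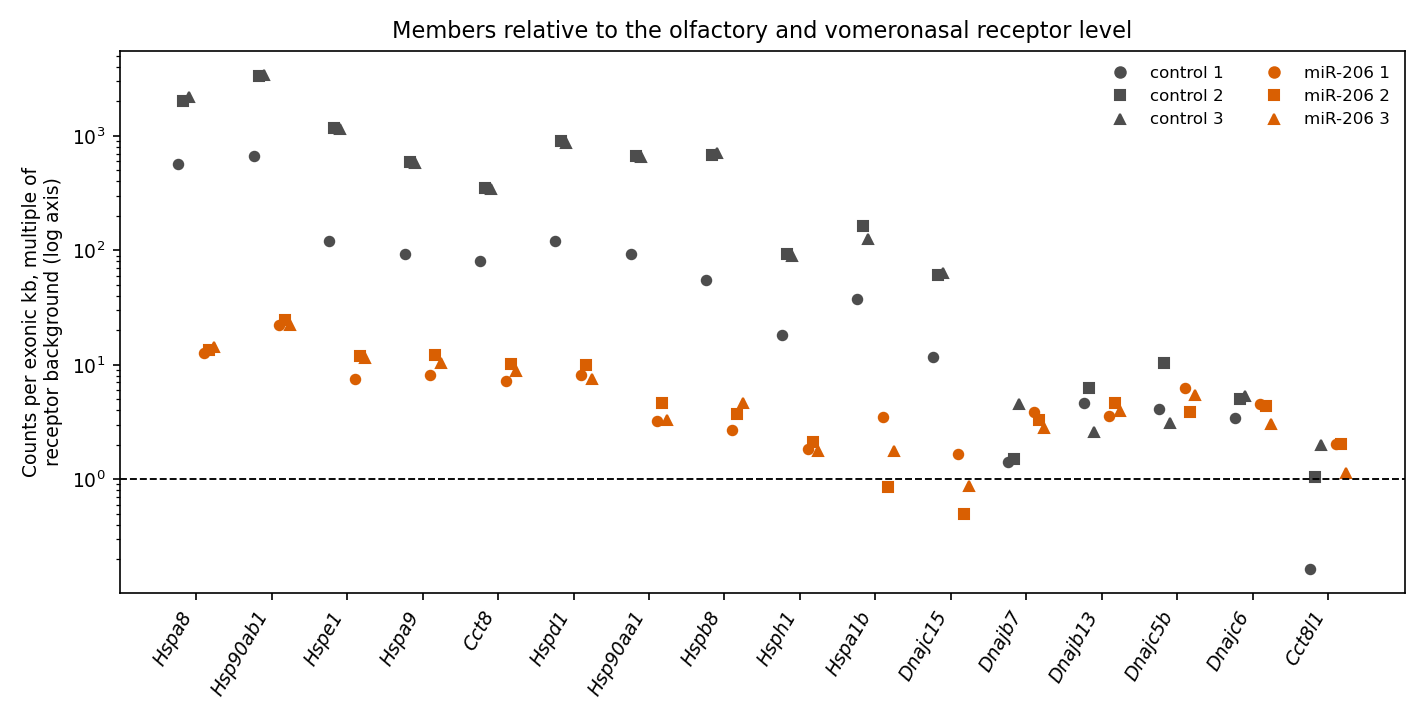
Counts per exonic kb of 16 members as a multiple of the receptor background in the same library (log axis; dashed line at 1). In the miR-206 libraries Hspa8 (12.6 to 14.2) and Hsp90ab1 (22.1 to 24.7) remain highest. The 5 members on the right, which rose in CPM, overlap between groups on this scale. Dnajc5g, which also rose in CPM, is not drawn.

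All 8 subunits of TRiC fell with the deposited counts, at log2 fold changes of -2.29 to -3.80; all were at 10 or more times background in the controls, and this share is near the 91.6% that fell among the genes of the corrected fit. Cct5 stood at 104, 188 and 214 CPM in the controls and at 9.27, 14.8 and 12.7 CPM in the miR-206 samples (-3.78, edgeR adjusted p 0.000328). Cct7 stood at 135, 163 and 163 CPM and at 8.90, 15 and 9.34 CPM (-3.80, adjusted p 0.000281). These were the 2 subunits that also fell after correction, by 0.99 (adjusted p 0.0272) and 1.67 (adjusted p 0.0232), of 7 in that fit; Both missed the threshold without miR-206 replicate 1 (0.055 and 0.074) or replicate 3 (0.085 and 0.093), and Cct5 also without control 2 (0.061) or control 3 (0.085).

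Cct3 was the subunit with the smallest fall, from 103, 115 and 122 CPM to 22.6, 22.7 and 24.4 CPM (-2.29), and its corrected value was 0.33 (edgeR adjusted p 0.438). The subunits enter the ring in equal number, so their shares of the summed counts per exonic kb were compared within each library. Cct5 held 21.1 to 25.2% of that sum in the controls and 13.2 to 15.4% in the miR-206 samples, and Cct7 7.81 to 11.2% and 4.51 to 6.35%. Tcp1 was also lower in every miR-206 sample, while Cct3 (6.11 to 9.08% and 10.3 to 13.9%), Cct6a (11.8 to 13.4% and 14.4 to 19.8%) and Cct8 (16.0 to 18.4% and 19.5 to 20.5%) were higher in every one. Cct2 and Cct4 overlapped. Tcp1 itself, the founding subunit, stood at 84.0, 144 and 150 CPM in the controls and at 9.02, 13.2 and 14.1 CPM in the miR-206 samples (-3.38, adjusted p 0.000343), and its corrected value of -0.85 missed the threshold (adjusted p 0.0598).

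Summed TRiC counts were compared with those of Hsp90ab1. The ratio was 0.884, 0.747 and 0.804 in the controls, against 2.21, 2.71 and 2.51 in the miR-206 samples, with no overlap (difference of log2 ratios 1.61, exact permutation p 0.1, adjusted 0.175; 1.36 with background subtracted). Summed TRiC was thus higher relative to Hsp90ab1 in the miR-206 samples. This ratio does not show whether TRiC itself was lower: 3 of the 8 subunits fell under all 6 scalings, and 2 of 7 after correction. Cct6b, a testis form of a TRiC subunit, did not pass the test (log2 fold change 0.89, edgeR adjusted p 0.128).

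The mitochondrial chaperones all fell with the deposited counts, 8 of 8, again near the 91.6% of the corrected fit's genes. Hspd1, mitochondrial HSP60, stood at 128, 359 and 324 CPM in the controls and at 14.9, 17.8 and 14 CPM in the miR-206 samples (-4.12, edgeR adjusted p 0.000372; corrected -1.19, adjusted p 0.0111). Hspe1, its HSP10 lid, stood at 72.4, 258 and 243 CPM and at 7.64, 11.7 and 11.9 CPM (-4.20, adjusted p 0.000452; corrected -1.19, adjusted p 0.0199). The ratio of Hspe1 to Hspd1 stayed within 0.515 to 0.853 in all 6 libraries, and the groups overlapped (difference of log2 ratios -0.03, exact permutation p 1). The counts of these 2 overlapping genes may share reads, since the strand setting is not given in the sources used here.

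Hspa9, the mitochondrial HSP70 that pulls proteins through the inner membrane, stood at 162, 382 and 358 CPM in the controls and at 23.9, 35.5 and 31.3 CPM in the miR-206 samples. It fell by 3.31 on the log2 scale (edgeR adjusted p 0.000653), and after correction stood at -0.39 (adjusted p 0.276). The ratio of Hspa9 to Hspa8 was 0.165, 0.297 and 0.265 in the controls, against 0.644, 0.916 and 0.724 in the miR-206 samples, which do not overlap (difference of log2 ratios 1.68, exact permutation p 0.1, adjusted 0.175; 1.64 with background subtracted). Of the J proteins of the import motor, Dnajc15 fell by 3.42 on the log2 scale, from 30.6, 59.4 and 58.6 CPM to 7.52, 2.16 and 4.02 CPM, and Dnajc19 by 2.45; the corrected values of these 2 were -2.46 (adjusted p 0.111) and 0.37 (adjusted p 0.245).

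**Figure D5:**
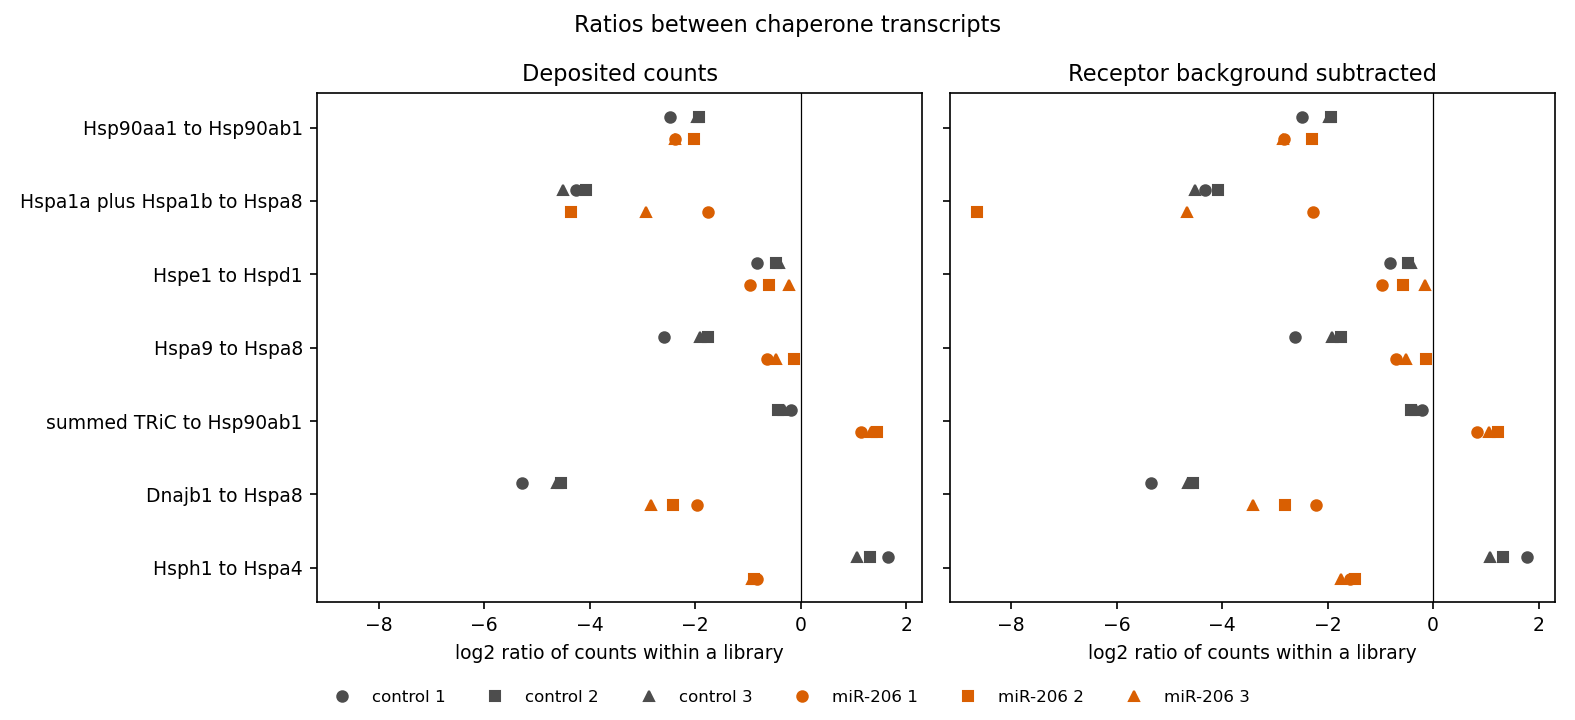
log2 ratio of counts between chaperone transcripts within each library, with deposited counts (left) and with the receptor background subtracted (right), for controls (grey) and miR-206 samples (orange). The groups are separate on both sides for Hspa9 to Hspa8, TRiC to Hsp90ab1, Dnajb1 to Hspa8 and Hsph1 to Hspa4, and overlap for the other 3 ratios.

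Of the small heat shock proteins, which hold unfolded protein without ATP, Hspb8 had the highest mean CPM. It stood at 43.6, 198 and 197 CPM there, with control 1 lowest, and at 3.63, 4.87 and 6.36 CPM in the miR-206 samples (-4.88, SE 0.65, edgeR adjusted p 0.00039; corrected -2.14, adjusted p 0.00863). Hspb1 fell from 6.15, 5.76 and 11.4 CPM to 2.13, 0.901 and 1.82 CPM, and Hspb6 from 4.71 to 16.7 CPM to 0.877 to 3.42 CPM. Hspb11, a protein of the cilium despite its symbol, stood at 4.83 to 7.85 CPM and 4.69 to 6.77 CPM, which overlap. The muscle and testis forms Hspb2, Hspb3, Hspb7 and Hspb9 had too few counts to test.

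Of the 8 members at the endoplasmic reticulum, 5 fell with the deposited counts, at a median over all 8 of -1.09. The share that fell was 29.6% over all genes tested and 91.6% over the genes of the corrected fit. Dnajb12, a membrane J protein, stood at 11.7, 27.1 and 25.5 CPM in the controls and at 2.01, 1.08 and 2.33 CPM in the miR-206 samples (-3.53, edgeR adjusted p 0.000343). Hspa13 fell from 44.5, 38.3 and 35.0 CPM to 28.7, 11.7 and 16.5 CPM (-1.05, adjusted p 0.0374), a call lost in 4 of the 6 fits that leave out a library (all but those without control 1 or miR-206 replicate 1), and its corrected value was 1.42 (adjusted p 0.0754). Dnajc10, a reductase of misfolded protein, fell by 1.3 and Dnajc1 by 1.36 on the log2 scale; the Dnajc10 call was lost without control 3 (adjusted p 0.052) and without miR-206 replicate 2 (0.068).

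The 14 genes of the heat-inducible list, chosen as known HSF1 targets, were compared with the other members. With deposited counts 13 of 14 fell, at a median of -3.54, and of the 58 others tested 35 fell and 6 rose, at a median of -1.43. In the corrected fit, 7 of 11 fell, at a median of -1.19, and of 23 others 2 fell and 1 rose, at a median of -0.10. Hspa1a, Dnajb4 and Hspa4l, also listed, were not in that fit. Over all genes of that fit, 15.5% fell and 19.3% rose, at a median of -0.14. Genes could enter it through their control level alone, and the list was chosen with earlier results of these data known. The contrast is therefore a description that supports no direction. All 14 were at 10 or more times background in the controls (median 138 times, against 14.3 times for the others); the part of this level in either contrast was not tested. Leaving out libraries in turn, 4 to 7 of them fell after correction, with 4 without miR-206 replicate 3. Dnajb1, Dnaja1 and Hspb1, all on the list, stood at 0.02, -0.50 and -0.12 after correction and did not pass.

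Other genes of the same pathways were taken from a list of 50. With the deposited counts 41 of 48 tested fell and none rose, at a median of -2.87; in the corrected fit 5 of 30 fell and 3 rose, at a median of -0.52. Against the 15.5% of all genes that fell and the 19.3% that rose there, neither count stands out. With the deposited counts, 29.6% of all genes tested fell and 25.8% rose. Hsf1 itself stood at 12.7, 24.2 and 18.8 CPM in the controls and at 0.627, 1.26 and 0.908 CPM in the miR-206 samples, with no overlap (log2 fold change -4.33, edgeR adjusted p 0.000271). That is 0.182 times the receptor background in the miR-206 libraries, and 12.1 times in the controls, so it was too low for the corrected fit. Hsf2, a related factor, stood at 8.77 to 10.3 and 10.2 to 14.4 CPM and did not pass (adjusted p 0.386).

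Sgta, an HSP70 cochaperone, fell both ways (-3.96 and, corrected, -1.61, edgeR adjusted p 0.00739), also with each library left out. Hsbp1, a small protein that binds HSF1, stood at -4.0 and -1.17 (corrected adjusted p 0.0144), and Pfdn5, a subunit of prefoldin that hands clients to TRiC, at -3.95 and -1.17 (0.0142). The corrected calls of both were lost without control 2 (adjusted p 0.056 and 0.053), control 3 (0.063 and 0.059) or miR-206 replicate 3 (0.056 and 0.054). Fkbp5, a steroid receptor cochaperone of HSP90, stood at 24.2, 158 and 169 CPM in the controls, against 8.65, 9.55 and 10.6 CPM in the miR-206 samples. Its corrected value of -1.96 (adjusted p 0.0228) kept its call in 1 of the 6 fits that leave out a library, that without control 1, and had adjusted p of 0.051 to 0.077 in the others. Stub1, a ubiquitin ligase, fell by 4.05 with the deposited counts (adjusted p 0.000376). It was at 1.56, 1.78 and 1.0 times background in the miR-206 samples, so its corrected value of -2.66 (adjusted p 0.0419) rests on few counts above background; that call was lost without control 2 (0.09), control 3 (0.136) or miR-206 replicate 1 (0.079).

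A further 3 cochaperones rose after correction, relative to the genes of that fit, and none of them passed with deposited counts. Among them were Tomm34, a link between HSP70 and HSP90 (corrected 2.27, edgeR adjusted p 0.00465), and the mitochondrial disaggregase Clpb (1.88, adjusted p 0.0031). Hscb, a J protein of iron-sulfur cluster assembly, stood at 2.09 (adjusted p 0.0261). As a multiple of background all were lower in the miR-206 libraries than in the controls (Tomm34 6.21 against 27.5, Clpb 4.43 against 25.0, Hscb 5.80 against 28.4). These calls were made under 4, 4 and 3 of the 5 scalings of the corrected counts, and that of Hscb was lost without control 2 (adjusted p 0.136), control 3 (0.121) or miR-206 replicate 3 (0.064). Trap1, the mitochondrial HSP90, fell with deposited counts (-2.35, adjusted p 0.00233) and stood at 0.64 (adjusted p 0.059) after correction. Ptges3, the HSP90 cochaperone p23, stood at 38.6, 160 and 146 CPM and at 14.8, 18.4 and 14.7 CPM, and at 0.19 after correction. The same pattern, a fall with deposited counts and a corrected value that missed the threshold, was seen for St13 (-2.92 and -0.52), Fkbp4 (-3.03 and -0.16), Grpel1, the exchange factor of Hspa9 (-3.26 and -0.46), the matrix protease Lonp1 (-3.19 and -0.55), Pfdn1 (-3.77 and -1.25) and the small heat shock protein Cryab (-2.97 and -0.96).

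The sequence of the overexpressed RNA was set against the members' transcripts. Mature miR-206 is encoded at chr1:20679055-20679076 on the plus strand; its seed, bases 2 to 8, is in capitals. The 3 sites listed with it hold the paired letters ACATTCC and belong to members already described, on the strand of the transcript (GRCm38, GENCODE M21): Hspd1 at chr1:55078051-55078057 (minus), Dnajc19 at chr3:34056373-34056379 (minus) and Dnajc6 at chr4:101640799-101640805 (plus), with the site in capitals.
miR-206-3p: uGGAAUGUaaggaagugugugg
Hspd1 site: aagacatttgtACATTCCtgatgctgggt
Dnajc19 site: gaagaacttgcACATTCCcaatgctttct
Dnajc6 site: gcagagtcttgACATTCCagcctgtcctt

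A seed match in the 3' UTR occurs in 9 of 71 members tested with an annotated UTR (12.7%) and in 1849 of 16822 such genes in all (11%). The 9 are Dnajb14, Dnajb2, Dnajc13, Dnajc19, Dnajc5, Dnajc6, Hspa12a, Hspa4l and Hspd1. Their median log2 fold change was -0.55, against -2.0 for the 62 members without a site; over all genes the medians were -0.34 with and -0.58 without. Of the 12 members that fell under all 6 scalings, Hspd1 is the one with a site. Hspa8, Hsp90aa1 and Hsp90ab1 have none in the UTR searched. For each gene that was the longest annotated 3' UTR among its protein-coding transcripts, and other UTRs were not searched.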

How the data were processed

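Libraries were made from total RNA with a SMARTER mRNA-Seq kit, per the labels. The values are the authors' unnormalised whole-number counts for each Ensembl gene, as deposited. The builds GRCm 38 and mm 10 are named in the submitters' processing notes; no aligner, counter, annotation or strand setting is given in the sources used here. Total counts ran from 4157947 to 15244017, and a count of 0 allows up to 3 counts (0.308 to 0.541 CPM). No molecular identifiers were counted, so intervals cover counting error only.

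Counts were filtered by filterByExpr (minimum count 10), scaled by TMM and tested on the whole table with the edgeR 4.0.16 quasi-likelihood test in R 4.3.3 (robust, group as the single term, Benjamini-Hochberg adjusted p under 0.05). Exonic lengths came from GENCODE M21, which matched 49056 of 49315 genes and all 79 members. Background was the counts per exonic kb over 1915 olfactory and vomeronasal receptor genes. Ratios used counts plus 0.5 and an exact permutation test. DESeq2 1.42.0, Python 3.11.15, numpy 2.4.6, scipy 1.17.1 and pandas 2.3.3 were also used. The fit was tested on simulated data with few changed genes, as many up as down, and no background difference between groups. That setting differs from these libraries, so it does not vouch for the calls here. Members, roles, lists and tests were chosen with earlier results of these data known. Genes named were a fixed list, up to 4 per role by mean CPM over all libraries, and the 5 largest changes each way; of the pathway list, 3 per sublist by mean CPM and Hsf1. Others named (such as Dnajb12, Hspa2, Hspa12a, Hspa12b, Dnajc28, Hsf2, Tomm34, Clpb, Hscb, and genes in counts of 8 or fewer) were chosen after their values were seen. Alternatives were other scalings, no filter, DESeq2, a replicate block, background correction and leaving out each library.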

Additional observations from a re-analysis of the deposited data

How the results depend on the processing

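Values are counts of members that fell and rose unless stated, against 48 and 6. With hepatocyte marker scaling 12 and 12 did, with the background-corrected fit 9 and 1, with RLE or upper-quartile factors on it 9 and 1 each, with library size alone on it 16 and 0, with hepatocyte scaling on it 15 and 0, and with the minimum on the mean of per-library ratios 12 and 3. Leaving out each library, 43 to 55 fell and 1 to 7 rose; in the background-corrected fit 4 to 9 fell and 1 to 4 rose. Of the other pathway genes (41 and 0), 9 fell and 3 rose with hepatocyte scaling, 5 fell and 3 rose after correction, and 1 rose with upper-quartile factors and 1 by library size. Of the heat-inducible list (13 fell), 8 fell with hepatocyte scaling and 7 after correction, also with RLE or upper-quartile factors, and 4 to 7 with libraries left out there. The member median of -2.0 became -1.13 with upper-quartile factors, -0.92 by library size, -0.18 with hepatocyte scaling, -2.30 without a low-count filter, -2.28 in DESeq2 and -2.40 to -1.99 without single libraries. After correction it was -0.27, and -0.33 (RLE), -0.26 (upper quartile), -1.10 (library size) and -1.30 (hepatocyte). The cause of these shifts was not tested. Corrected fits test fewer genes and take their library sizes and scaling factors from those genes. The log2 ratio of Hspa1a plus Hspa1b to Hspa8 differed by 1.26, and by -0.88 with background subtracted. That of Hspe1 to Hspd1 ranged from -0.21 to 0.15 without single libraries, with 0.02, 0.05 and 0.15 above 0. Named genes that passed the test in the deposited or the alternative fit changed sign as follows. By library size, Hspa13 stood at 0.094. With hepatocyte scaling, Hspa13 stood at 0.56, Dnajc10 at 0.49, Dnajc1 at 0.61, Dnajb14 at 1.79, Hspa14 at 0.62, Dnajb4 at 0.34 and Hspb6 at 0.022. After correction, Hspa13 stood at 1.42, Hspa4 at 1.86, Dnaja2 at 0.019, Dnajb1 at 0.025, Dnajc22 at 0.41, Dnajc5 at 0.019, Dnajc7 at 0.47, Cct3 at 0.33, Dnaja3 at 0.38 and Dnajc19 at 0.37. Of named genes that did not pass with the deposited counts, Hspa4 (0.15), Hspa4l (0.56), Dnajb14 (0.73), Hspbap1 (0.56) and Hspb11 (0.90) were above 0 by library size, and Hspa4 (1.20), Hspa4l (1.24), Hspbap1 (1.35) and Hspb11 (1.53) with hepatocyte scaling. With upper-quartile factors Dnajb14 (0.55), Hspa4l (0.30), Hspbap1 (0.40) and Hspb11 (0.65) were, and so was Dnajb14 (0.18) without control 2; Dnajc13 was below 0 without the filter (-0.027) and without control 1 (-0.17). With the replicate block, 47 fell and 5 rose. Deviations of same-numbered libraries correlated at 0.01, 0.02 and -0.01, and those of differently numbered libraries at -0.018 to 0.011. With 3 libraries per group, such values cannot settle whether equal numbers mark the same mouse. Depth limits members with few counts: 8 had fewer than 10 counts in every miR-206 library.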
